A study of Homo sapiens with 2 samples.

Results

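Gene deserts are long stretches of chromosome without protein-coding genes, and 888 accessible-chromatin peaks of the DMSO library and 2623 of the MAK683 library lay in them. A peak was counted as a gene-desert peak when its summit, the base with the highest pile of sequenced ends, was on chromosomes 1 to 22, outside every protein-coding gene body and at least 500 kb from the nearest transcription start site (TSS) of a protein-coding gene in GENCODE 44 on GRCh37/hg19. These peaks made up 0.793% (95% Wilson interval 0.743 to 0.847) of the 111987 autosomal DMSO peaks and 1.65% (1.59 to 1.72) of the 158856 autosomal MAK683 peaks. The libraries were ATAC-seq libraries of G401 cells, an established kidney line of malignant rhabdoid tumor origin, a tumor type without the chromatin remodeling subunit SMARCB1. In ATAC-seq the Tn5 transposase cuts open chromatin, so sequenced ends mark accessible DNA. A culture given DMSO, the solvent, was compared with a culture given MAK683, an inhibitor of the Polycomb complex PRC2 that docks on its EED protein, both for 3 days and with MAK683 at 3 μM per the series design. There was 1 culture and 1 library per group, so no test was possible, all differences are between these libraries, and a difference between cultures cannot be told apart from an effect of the compound.

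PRC2 places methyl groups on lysine 27 of histone H3, a mark of repressed chromatin that can spread over genes and over the wide spaces between them. Gene deserts are mostly closed and gene-poor chromatin, but some hold clusters of enhancers that control a developmental gene at their edge, and many hold genes for long noncoding RNAs. Deserts beside the centromeres run into alpha satellite, a repeated sequence in tandem copies that is hard to place in an assembly and in read alignment.

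The sequences shown first are at the tallest summits, because short stretches recur in them. All sequences are read from the plus strand of GRCh37 with 75 bases on each side of the summit of the taller library. The first 6 are the tallest regions with a peak in both libraries, which all lay within 1 Mb of a large assembly gap, and the seventh and eighth are the tallest shared region away from such gaps and a region with a DMSO peak only. Capitals mark stretches made of 12-base words, read on either strand, that occurred in at least 3 of the first 6 windows.
Shared, FAM72B to PPIAL4G, chr1:121484959-121485109: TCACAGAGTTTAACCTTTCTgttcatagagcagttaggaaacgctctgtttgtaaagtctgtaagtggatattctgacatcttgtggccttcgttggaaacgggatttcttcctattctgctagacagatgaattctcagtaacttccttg
Shared, ZNF254 to UQCRFS1, chr19:27732060-27732210: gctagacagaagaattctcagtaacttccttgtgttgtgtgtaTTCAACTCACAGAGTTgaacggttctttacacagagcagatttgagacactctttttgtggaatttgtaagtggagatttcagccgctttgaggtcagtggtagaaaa
Shared, LINC00999 to ZNF33B, chr10:42529368-42529518: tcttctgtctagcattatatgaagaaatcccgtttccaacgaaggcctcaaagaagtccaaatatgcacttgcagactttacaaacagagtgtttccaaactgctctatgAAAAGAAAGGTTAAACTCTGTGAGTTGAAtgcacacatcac
Shared, ZNF716 to ZNF722, chr7:61969230-61969380: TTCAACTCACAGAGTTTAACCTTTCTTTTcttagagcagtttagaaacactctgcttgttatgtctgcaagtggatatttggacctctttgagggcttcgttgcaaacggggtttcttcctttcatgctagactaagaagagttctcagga
Shared, PRIM2 to KHDRBS2, chr6:58776878-58777028: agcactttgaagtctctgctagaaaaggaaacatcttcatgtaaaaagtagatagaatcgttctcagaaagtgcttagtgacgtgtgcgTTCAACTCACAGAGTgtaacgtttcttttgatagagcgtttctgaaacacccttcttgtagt
Shared, RP11-685N3.1 to TEKT4, chr2:92318103-92318253: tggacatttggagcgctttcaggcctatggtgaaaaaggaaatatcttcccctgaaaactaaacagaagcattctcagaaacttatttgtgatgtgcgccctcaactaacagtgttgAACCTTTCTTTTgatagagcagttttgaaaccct
Shared, away from gaps, SPATA31A7 to FAM27E3, chr9:66971254-66971404: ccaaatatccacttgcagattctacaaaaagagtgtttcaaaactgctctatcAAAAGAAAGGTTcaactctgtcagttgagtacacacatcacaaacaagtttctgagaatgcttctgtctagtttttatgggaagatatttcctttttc
DMSO only, PRIM2 to KHDRBS2, chr6:61913346-61913496: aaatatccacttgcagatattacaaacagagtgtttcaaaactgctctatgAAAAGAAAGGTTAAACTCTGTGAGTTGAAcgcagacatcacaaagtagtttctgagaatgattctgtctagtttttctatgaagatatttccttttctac

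The remaining windows are from deserts where the libraries differed, and here capitals mark a match to one of the 8 motifs searched, an E-box, a TEAD site or an AP-1 site. They are the tallest shared and the tallest DMSO-only window of the ARRDC3 to NR2F1 desert, windows of 2 of the 3 largest falls, the tallest window of the MIR99AHG locus, 2 of the 3 tallest MAK683-only windows and the 2 largest rises.
Shared, ARRDC3 to NR2F1, chr5:91895168-91895318: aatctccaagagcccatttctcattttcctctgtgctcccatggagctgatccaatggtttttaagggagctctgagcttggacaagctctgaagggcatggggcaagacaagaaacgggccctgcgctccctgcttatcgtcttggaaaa
DMSO only, ARRDC3 to NR2F1, chr5:91890544-91890694: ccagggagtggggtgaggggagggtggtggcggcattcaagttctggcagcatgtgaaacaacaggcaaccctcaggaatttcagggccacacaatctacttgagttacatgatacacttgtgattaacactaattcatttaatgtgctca
Fall, ARRDC3 to NR2F1, chr5:92141035-92141185: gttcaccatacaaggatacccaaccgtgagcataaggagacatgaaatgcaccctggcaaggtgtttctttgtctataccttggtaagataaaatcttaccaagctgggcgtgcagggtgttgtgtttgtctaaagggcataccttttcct
Fall, SLITRK5 to GPC5, chr13:91097453-91097603: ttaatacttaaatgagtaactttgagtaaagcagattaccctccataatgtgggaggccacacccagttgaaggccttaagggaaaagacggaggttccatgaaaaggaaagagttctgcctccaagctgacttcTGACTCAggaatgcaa
Shared, USP25 to CXADR, chr21:17936152-17936302: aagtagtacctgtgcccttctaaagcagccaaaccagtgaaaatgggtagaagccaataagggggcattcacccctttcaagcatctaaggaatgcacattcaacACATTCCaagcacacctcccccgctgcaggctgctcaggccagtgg
MAK683 only, ST8SIA4 to SLCO4C1, chr5:101014380-101014530: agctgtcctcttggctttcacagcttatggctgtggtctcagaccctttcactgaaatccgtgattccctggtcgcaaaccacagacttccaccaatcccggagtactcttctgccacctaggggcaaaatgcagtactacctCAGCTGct
MAK683 only, RP11-685N3.1 to TEKT4, chr2:91787421-91787571: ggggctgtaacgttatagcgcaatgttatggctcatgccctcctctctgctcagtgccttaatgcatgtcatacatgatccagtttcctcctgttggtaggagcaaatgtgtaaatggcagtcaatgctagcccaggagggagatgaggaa
Rise, RP11-685N3.1 to TEKT4, chr2:91761672-91761822: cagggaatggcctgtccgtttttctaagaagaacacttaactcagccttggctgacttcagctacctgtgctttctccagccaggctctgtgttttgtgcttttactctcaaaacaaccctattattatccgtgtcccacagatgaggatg
Rise, RP11-685N3.1 to TEKT4, chr2:91677436-91677586: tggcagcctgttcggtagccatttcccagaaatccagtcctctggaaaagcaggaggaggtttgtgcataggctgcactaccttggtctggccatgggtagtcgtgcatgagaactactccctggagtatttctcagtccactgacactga

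The MAK683 library had 2.95 times as many gene-desert peaks as the DMSO library (95% Poisson interval 2.74 to 3.19). All other autosomal peaks numbered 111099 in DMSO and 156233 in MAK683, a ratio of 1.41 (1.40 to 1.42). The ratio in deserts was thus 2.1 times that elsewhere (1.95 to 2.27). These intervals cover counting error only, since neighbouring peaks are not independent of each other and the tags carry no molecular identifiers. Deserts stayed sparse in both libraries. They took up 9.82% of the known autosomal sequence, 263.66 Mb in 351 stretches, and held 3.37 DMSO peaks and 9.95 MAK683 peaks per Mb, against 45.9 and 64.5 per Mb in the rest. The length they covered grew less than their number, from 643.858 kb to 1343.53 kb, or 2.09 times. The median peak was 406 bp wide in DMSO and 362 bp in MAK683. Desert peaks came in groups rather than singly: 64.2% of the DMSO peaks and 65.3% of the MAK683 peaks had another peak of the same library within 10 kb, against 87.3% and 87.7% of other autosomal peaks. The median distance to a coding TSS was 815 kb for DMSO and 736 kb for MAK683 peaks, and 277 and 730 peaks lay more than 1 Mb away.

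The excess in MAK683 was made of low peaks. After filtering, the DMSO library had 16598348 tags and the MAK683 library 18265284, and height is given as the tags piled up at the summit per 1000000 of these (RPM), so that 1 tag was 0.0602 RPM in DMSO and 0.0547 RPM in MAK683. Below 0.5 RPM there were 187 DMSO and 1254 MAK683 desert peaks, a ratio of 6.71 (5.75 to 7.82). This bin reached up to 8 tags in DMSO and 9 tags in MAK683, and the lowest peak of either library had 6 tags. From 0.5 to 1 RPM the numbers were 504 and 1188, a ratio of 2.36 (2.12 to 2.62). From 1 to 1.5 RPM they were 87 and 120, a ratio of 1.38 (1.05 to 1.82). Among the highest desert peaks, of at least 1.5 RPM, the order turned, with 110 in DMSO and 61 in MAK683, a ratio of 0.55 (0.41 to 0.76). Other autosomal peaks showed the same order of ratios at 2.73, 1.14, 0.95 and 0.52. Relative to them, deserts had 2.46 times the ratio below 0.5 RPM (2.11 to 2.87), 2.07 times from 0.5 to 1 RPM (1.87 to 2.30), 1.45 times from 1 to 1.5 RPM (1.10 to 1.92) and 1.06 times at or above 1.5 RPM (0.78 to 1.45). The last interval includes 1.

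High ratios were not particular to deserts. Outside them the ratio was larger in each class farther from coding genes. It was 1.09 (1.07 to 1.10) within 3 kb of a coding TSS, 1.27 (1.26 to 1.29) in the rest of the gene bodies, and 1.43 (1.40 to 1.45) between genes at 3 to 50 kb. At 50 to 100 kb it was 2.34 (2.27 to 2.42), at 100 to 200 kb 3.36 (3.24 to 3.50) and at 200 to 500 kb 3.48 (3.32 to 3.64), the last from 2323 DMSO and 8085 MAK683 peaks. The desert ratio of 2.95 lay below both of these. The stretch just outside the 500 kb limit, 450 to 500 kb, held 206 and 557 peaks, a ratio of 2.70, and the stretch just inside, 500 to 550 kb, held 99 and 418, a ratio of 4.22. Farther into the deserts the ratio did not go on growing: it was 3.48 (2.99 to 4.06) at 550 to 700 kb, 2.45 (2.14 to 2.80) at 700 to 1000 kb and 2.64 (2.29 to 3.03) beyond.

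**Figure D1:**
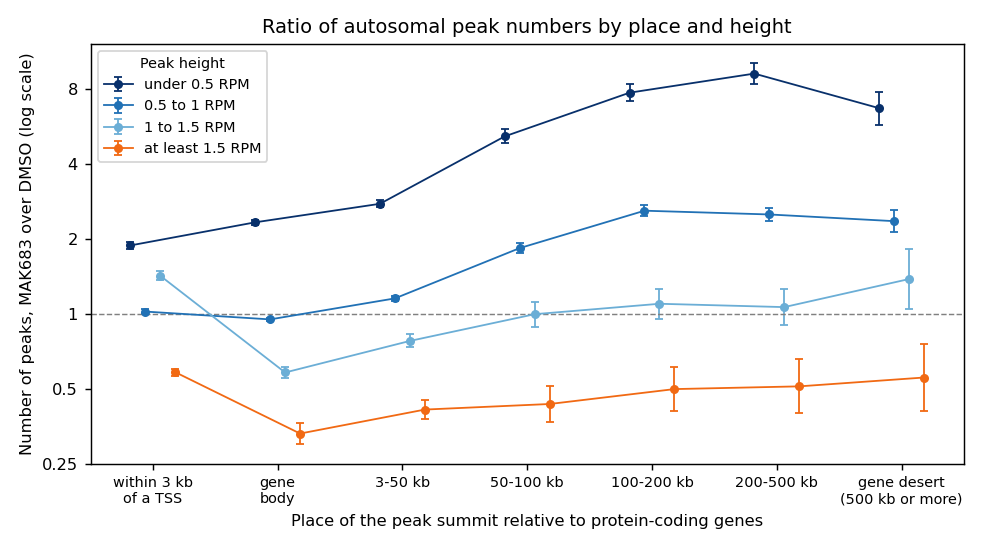
Number of MAK683 peaks divided by number of DMSO peaks (vertical axis, log scale) for each place of the summit relative to protein-coding genes, with 1 line per bin of peak height in RPM and bars for the 95% Poisson interval. In gene deserts the ratio fell from 6.71 for the lowest peaks to 0.55 for the highest.

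Over all heights, desert peaks near large assembly gaps, such as those at centromeres, had a lower ratio than the others. From 1 RPM up the order was the other way. At 1 to 1.5 RPM the ratio was 1.95 (1.15 to 3.30) near gaps and 1.20 (0.86 to 1.66) elsewhere, with overlapping intervals. In all, 229 DMSO and 371 MAK683 desert peaks lay within 1 Mb of an assembly gap of at least 1 Mb, a ratio of 1.62 (1.37 to 1.91), which was 1.15 times (0.98 to 1.36) that of peaks outside deserts. Without the desert that had the most peaks, RP11-685N3.1 to TEKT4, the near-gap numbers were 152 and 205, a ratio of 1.35 (1.09 to 1.66). The remaining 659 DMSO and 2252 MAK683 desert peaks had a ratio of 3.42 (3.13 to 3.73), or 2.43 times (2.23 to 2.65) that outside deserts. Among peaks of at least 1.5 RPM, 48 DMSO and 42 MAK683 peaks were near gaps, a ratio of 0.88 (0.58 to 1.32), or 1.67 times (1.11 to 2.54) that of equally high peaks outside deserts. Elsewhere there were 62 and 19, a ratio of 0.31 (0.18 to 0.51), which was 0.59 times (0.35 to 0.98) that of equally high peaks outside deserts. So low a ratio was not particular to deserts. Equally high peaks had a ratio of 0.33 (0.30 to 0.36) in gene bodies and 0.58 within 3 kb of a coding TSS. Between genes it was 0.41 at 3 to 50 kb and 0.51 at 200 to 500 kb.

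The tallest desert peaks were in both libraries at much the same heights. The tallest, on chromosome 1 between FAM72B and PPIAL4G, had 351 tags in DMSO and 353 in MAK683, or 21.1 RPM (exact 95% interval 19.0 to 23.5) and 19.3 RPM (17.4 to 21.5). The next, on chromosome 19 between ZNF254 and UQCRFS1, had 243 and 246 tags, or 14.6 and 13.5 RPM. The other 4 of the 6 tallest stood between 8.80 and 11.4 RPM in DMSO and between 8.27 and 10.6 RPM in MAK683. Their log2 height ratios, MAK683 over DMSO, lay from -0.21 to -0.09, and each interval included 0. Equal tag numbers give -0.14 on this scale because the MAK683 library had 1.1 times as many tags. On chromosome 6 the DMSO summit was at base 58776953 and the MAK683 summit at 58777976. On chromosome 2 they were at 92318178 and 92320640. These 2 ratios thus compare different sites of a merged region. With 1 tag kept per position and an extension of 200 bp, a summit can hold only a limited number of tags. Near that limit equal heights need not mean equal accessibility, and the intervals do not allow for it. How far it held down the tallest heights was not tested. The 6 windows printed above shared much of their sequence: 15 common words were found, 12 of the 15 pairs of windows shared at least 1 word, and the longest capital run, of 29 bases, stood on opposite strands in the chromosome 10 and chromosome 7 windows. These windows carried none of the 8 motifs. The words were chosen from these 6 windows after their sequences were seen, so their frequency is a description. They occurred in 40 of 229 near-gap DMSO peaks (17.5%) and 32 of 371 near-gap MAK683 peaks (8.63%), in 4 of 659 and 5 of 2252 desert peaks elsewhere, and in 67 of 111099 and 105 of 156233 other autosomal peaks. Reads from repeated sequence can be placed at several sites, and how the alignment treated them is not given in the sources used here. Its part in these heights was not tested, nor were the windows compared with a repeat annotation.

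Merging overlapping peaks of both libraries gave 2844 desert regions. A peak in MAK683 only was found in 2018 of them, or 71.0%, against 46.1% of all 196615 autosomal regions. A peak in DMSO only was found in 299, or 10.5%, against 25.0% of all autosomal regions. Both libraries had a peak in 527 desert regions. Counted by peak, 66.3% (63.2 to 69.4) of the DMSO desert peaks were overlapped by a MAK683 peak, and 23.1% (21.5 to 24.7) of the MAK683 desert peaks by a DMSO peak, against 56.0% and 43.3% of other autosomal peaks. Low sharing in MAK683 was not particular to deserts. Between genes the DMSO and MAK683 shares were 62.6% and 20.2% at 100 to 200 kb and 60.9% and 18.6% at 200 to 500 kb. Regions with a peak in 1 library were low, with a median of 9 tags in each. Only 2 of the 299 DMSO-only regions and 24 of the 2018 MAK683-only regions reached 1 RPM. This was not particular to deserts. Of other autosomal peaks found in 1 library, 549 of 48921 in DMSO and 843 of 88549 in MAK683 reached it. Their median was 9 tags as well. The tallest DMSO-only regions had 21 tags, 18 tags and, at 2 sites, 16 tags. All but the chromosome 6 site of 16 tags, whose window holds the common words, lay in the ARRDC3 to NR2F1 desert. The tallest MAK683-only regions had 27 tags at chr2:91678660-91679902 and at chr5:101013709-101014638, the latter between ST8SIA4 and SLCO4C1, and 26 tags at chr2:91785838-91787948, in the long noncoding RNA gene LSP1P5. The first of these begins just after the shared region chr2:91676162-91678373, which had 23 tags in DMSO and 62 in MAK683. A region without a called peak can still hold tags under the calling limit, which were not analysed here.

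At the 527 shared desert regions the median log2 height ratio was -0.14 (-0.20 to -0.14), which is the value for equal tag numbers, against -0.33 over all 56828 shared autosomal regions. The MAK683 height was lower at 326 regions, 61.9%, against 76.2% of all shared autosomal regions, and higher at 201, against 23.8% of all. Rise and fall name the direction of this ratio between the 2 libraries and stand for no test. A rise of at least 2-fold was seen at 12 regions, 2.28%, against 0.880% of all shared autosomal regions. Of these 12 regions 7 were in the RP11-685N3.1 to TEKT4 desert, and without it 5 of 474 regions, 1.05%, rose that much. A fall of at least 2-fold was seen at 27, 5.12%, against 5.56%. The near-gap and the other deserts parted again. Away from gaps the median over 378 regions was -0.20 (-0.28 to -0.14), and for the 104 of them whose mean height reached 1 RPM it was -0.52 (-0.65 to -0.44), with 86 lower (82.7%) and 18 higher, against -0.47 and 87.8% lower over all shared autosomal regions of that height. Near gaps the median over 149 regions was -0.01 (-0.14 to 0.07). This value turned on 1 desert: without RP11-685N3.1 to TEKT4 it was -0.15 (-0.24 to -0.10) over 96 regions.

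**Figure D2:**
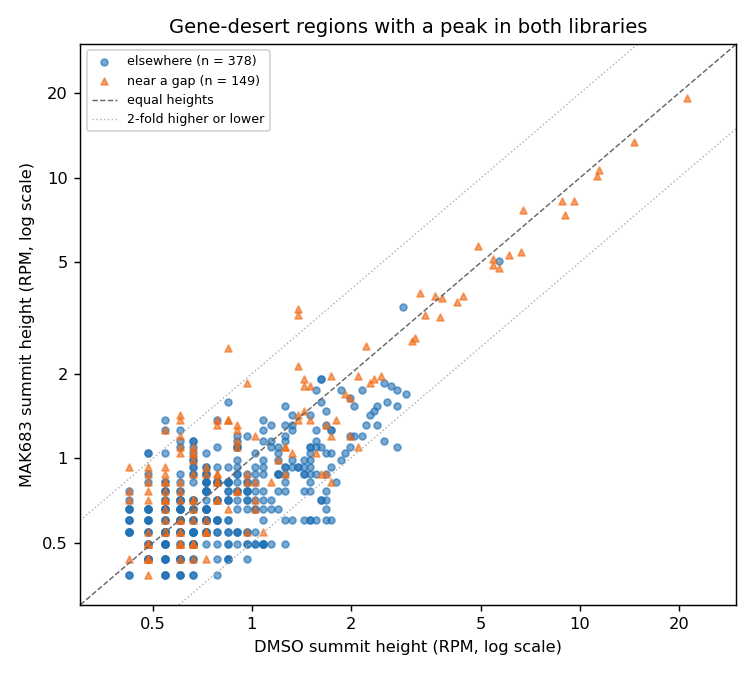
Summit height in RPM of the 527 desert regions with a peak in both libraries, DMSO on the horizontal and MAK683 on the vertical axis (both log scale), with triangles for regions within 1 Mb of a large assembly gap. Points at the top right, from 5 to 21 RPM, run along the line of equal heights, and most circles between 1 and 3 RPM lie below it.

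Peaks were spread unevenly over the 351 deserts. A peak of either library was found in 200 of them and none in the rest, of which 29 had at least 1 Mb of known sequence. DMSO peaks were found in 124 deserts and MAK683 peaks in 196, with 76 holding MAK683 peaks only and 4 DMSO peaks only. More MAK683 than DMSO peaks were found in 164 deserts, fewer in 20 and equal numbers in 16. Among the 53 deserts with at least 20 peaks in both libraries together, the median ratio was 5.11, and the interval of the ratio lay above 1 in 37 and below 1 in a single one. The limit was on the sum, so MAK683 peaks alone could meet it, as between NSUN3 and EPHA6 with 0 and 27 peaks. The median and these counts are therefore weighted towards deserts with many MAK683 peaks. The 10 deserts with the most peaks held 28.8% of all desert peaks. Of the 3 longest, PCDH7 to ARAP2, with 4.46 Mb of sequence beside the protocadherin gene PCDH7, had 0 DMSO and 2 MAK683 peaks. AGA to TENM3, beside a teneurin gene of neuronal adhesion, had 9 and 46, and CELF4 to PIK3C3, with 3.39 Mb, had 5 and 45.

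Among the deserts with at least 20 peaks, the lowest ratio was found between ARRDC3 and NR2F1 on chromosome 5. Smaller numbers gave a lower one between SORCS1 and XPNPEP1, with 11 DMSO and 3 MAK683 peaks, 0.27 (0.08 to 0.98). NR2F1 encodes COUP-TFI, an orphan nuclear receptor active in neural crest and brain development. The desert beside NR2F1, chr5:91179134-92418928, held 71 DMSO peaks and 35 MAK683 peaks, a ratio of 0.49 (0.33 to 0.74), and was the only one of the 53 whose interval lay below 1. The DMSO peaks ranged from 6 to 49 tags with a median of 11, and the MAK683 peaks from 7 to 31 tags with a median of 11. The peaks sat together: 57 of the 71 DMSO peaks were in 252 kb, from 711 to 964 kb after the start of the desert, and 28 of the 35 MAK683 peaks were in the same stretch, from 710 to 962 kb. All 30 shared regions were lower in MAK683, with a median log2 ratio of -0.74. Of all shared autosomal regions 76.2% were lower, and of those with a mean of at least 1 RPM 87.8%, with medians of -0.33 and -0.47. The tallest, printed above, lies in the long noncoding RNA gene ENSG00000249776 and 1024 kb from the nearest coding TSS, that of NR2F1. It fell from 49 tags (2.95 RPM, 2.18 to 3.90) to 31 tags (1.70 RPM, 1.15 to 2.41), a log2 ratio of -0.80 (-1.45 to -0.15). The region with the printed fall, chr5:92140602-92141907, had 28 tags in DMSO and 11 in MAK683, a log2 ratio of -1.49 (-2.49 to -0.48). It lies 778 kb from the TSS of NR2F1.

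A second desert of this kind lies on chromosome 13 between SLITRK5, a neuronal transmembrane protein, and GPC5, a cell-surface glypican. It held 61 DMSO and 44 MAK683 peaks, a ratio of 0.72 (0.49 to 1.06), an interval that includes 1. Again the peaks sat in a cluster, with 49 of the 61 DMSO peaks in 454 kb of a desert of 2726 kb, and 36 of the 44 MAK683 peaks in 378 kb. All 26 shared regions were lower in MAK683, against 76.2% of all shared autosomal regions, with a median log2 ratio of -0.70. The region with the largest fall, chr13:91097390-91098291, went from 26 to 11 tags, a log2 ratio of -1.38 (-2.40 to -0.36), and its window holds an AP-1 match. Peaks of at least 1 RPM numbered 17 in DMSO and 5 in MAK683 here, and 19 and 5 between ARRDC3 and NR2F1. Lower heights were not confined to the deserts with low ratios. Between CITED2 and NMBR, picked out after the values were seen, each library had 32 peaks. There 19 of 21 shared regions were lower and 2 higher, with a median log2 ratio of -0.61, and 17 and 7 peaks reached 1 RPM. All 6 shared regions between TMPRSS15 and NCAM2 and all 5 between ZNF608 and GRAMD2B were lower.

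The other deserts with low ratios had smaller numbers. USP25 to CXADR on chromosome 21, which spans MIR99AHG, the host gene of a microRNA cluster, had 23 DMSO and 16 MAK683 peaks, a ratio of 0.70 (0.37 to 1.32). Its tallest region went from 44 to 33 tags, a log2 ratio of -0.55 (-1.20 to 0.10), and its window has a TEAD match. CSMD3 to TRPS1 on chromosome 8 had 20 and 14 peaks, a ratio of 0.70 (0.35 to 1.39), and all 11 of its shared regions were lower in MAK683, against 76.2% of all shared autosomal regions, with a median log2 ratio of -0.78. The largest fall of all shared desert regions of at least 1 RPM lay between MYC and GSDMC, inside the long noncoding RNA gene CCDC26, where 29 tags in DMSO stood against 11 in MAK683, a log2 ratio of -1.54 (-2.54 to -0.54). That desert had 21 DMSO and 23 MAK683 peaks, and 11 of its 12 shared regions were lower in MAK683. Of the 27 desert regions that fell at least 2-fold, 8 were between SLITRK5 and GPC5, 7 between ARRDC3 and NR2F1 and 3 between CSMD3 and TRPS1. These deserts were picked out by their ratios or heights in the same libraries, so their values are a description.

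**Figure D3:**
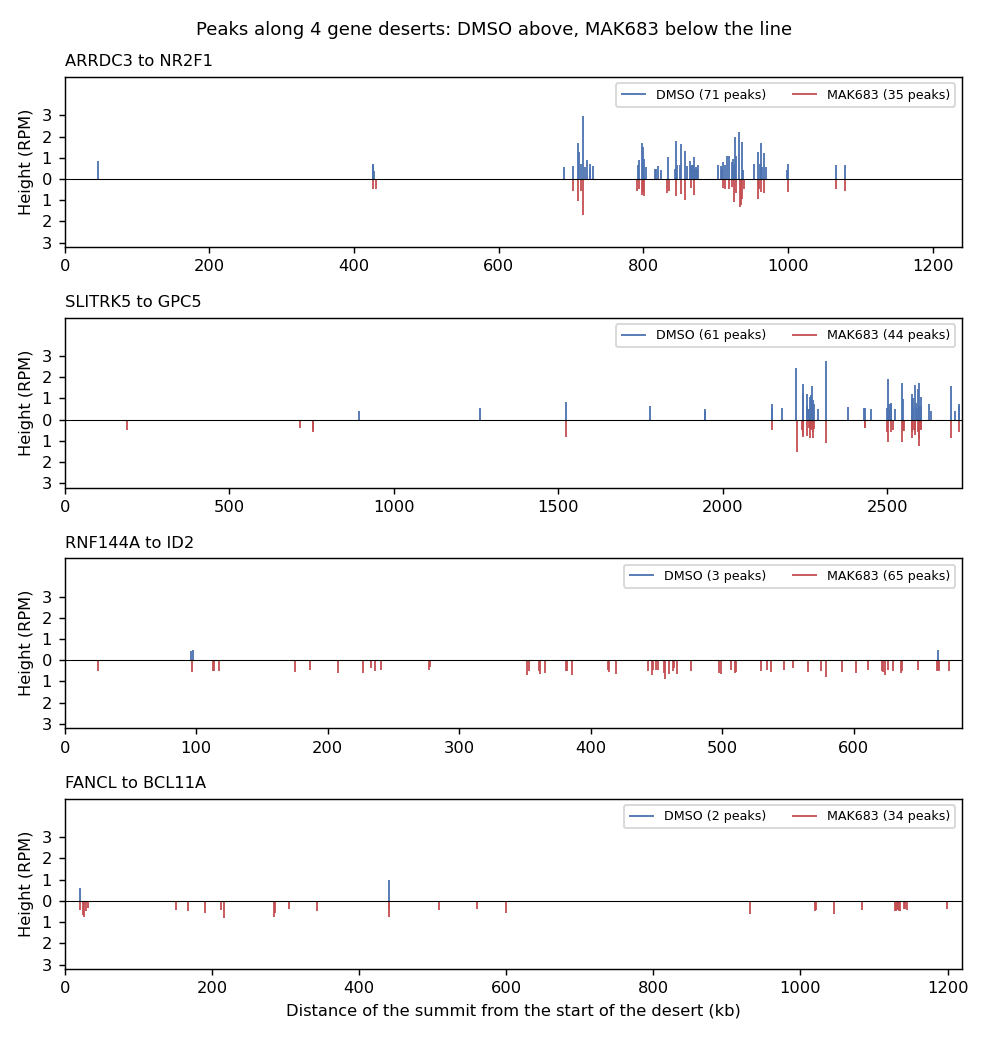
Every peak of 4 deserts by the distance of its summit from the start of the desert in kb (horizontal axis) and its height in RPM, with DMSO above and MAK683 below the line. In the upper pair of deserts the peaks of both libraries sit in the same clusters and are taller in DMSO, with 71 against 35 and 61 against 44 peaks, and in the lower pair low MAK683 peaks lie over much of the desert, with 65 against 3 and 34 against 2.

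Other deserts had many low peaks in MAK683 and few or none in DMSO. No DMSO peak was called between NSUN3 and EPHA6, an ephrin receptor gene, where MAK683 had 27, at least 9-fold more with the DMSO number set to a floor of 3 peaks. The same held for B3GAT1 to the end of chromosome 11, with 0 and 26 peaks (at least 8.67-fold), and for MKI67 to MGMT, a DNA repair gene, with 0 and 23 peaks (at least 7.67-fold). None of the MAK683 peaks in these 3 deserts reached 1 RPM; the tallest had 15, 14 and 18 tags. KCNV1 to CSMD3 on chromosome 8 had 12 DMSO and 66 MAK683 peaks, a ratio of 5.50 (2.97 to 10.2).

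Further deserts with few DMSO peaks were picked out after their values were seen. RNF144A to ID2 on chromosome 2, beside the gene of an inhibitor of basic helix-loop-helix factors, had 3 DMSO peaks of 7 to 8 tags and 65 MAK683 peaks of 6 to 16 tags with a median of 9, a ratio of 21.7. Of these MAK683 peaks 52 of the 65 took up 387 kb, or 56.8% of a desert of 682 kb. FANCL to BCL11A, beside a zinc-finger repressor gene, had 2 and 34 peaks, and 28 of the 34 took up 994 kb, or 81.5% of the desert. GALR1 to SALL3 had 2 and 35 peaks, CADM1 to BUD13 had 2 and 34, and TENM4 to FAM181B had 3 and 48. In the ARRDC3 to NR2F1 desert, of about the length of FANCL to BCL11A, the same share of the MAK683 peaks took up 20.4%. The stretches differ less in kb than in percent, since 36 MAK683 peaks of the SLITRK5 to GPC5 desert took up 378 kb, close to the stretch beside ID2.

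**Figure D4:**
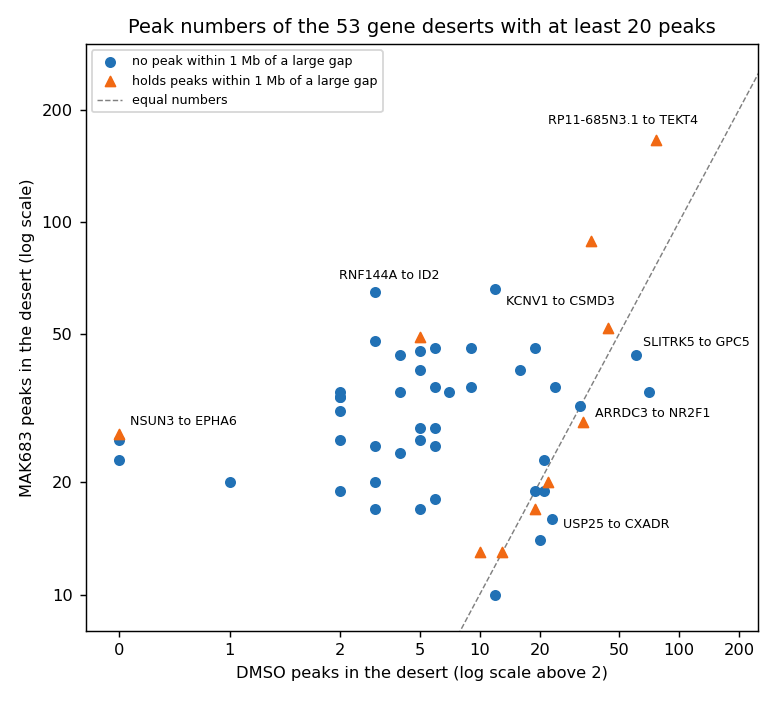
Number of DMSO peaks (horizontal axis, log scale above 2) and MAK683 peaks (vertical axis, log scale) in each of the 53 deserts with at least 20 peaks, with triangles for deserts that hold peaks within 1 Mb of a large assembly gap. Of these deserts, 41 lie above the line of equal numbers, 9 below it and 3 on it. The limit is on the sum of both libraries, so MAK683 peaks alone can meet it.

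The desert with the most peaks was RP11-685N3.1 to TEKT4 on chromosome 2, beside a large assembly gap, with 77 DMSO and 166 MAK683 peaks in 0.731 Mb of known sequence, a ratio of 2.16 (1.65 to 2.82). Of its 53 shared regions 40 were higher in MAK683 and 13 lower, with a median log2 ratio of 0.54 (0.28 to 0.70). Of all shared autosomal regions 23.8% were higher, and their median log2 ratio was -0.33. Of the 12 desert regions that rose at least 2-fold, 7 were here. Peaks of at least 1 RPM numbered 16 in DMSO and 37 in MAK683. The 3 largest rises among shared regions of at least 1 RPM were all here. The first, a merged region of 6364 bp, had 14 tags in DMSO and 45 in MAK683, a log2 ratio of 1.55 (0.68 to 2.41). Its summits lay at different sites, base 91763338 in DMSO and base 91761747 in MAK683, so this ratio does not compare 1 site. Its printed window does not hold the DMSO summit. The second went from 23 to 62 tags, 1.29 (0.60 to 1.98), and the third from 10 to 26 tags, 1.24 (0.19 to 2.29). None of these 3 windows holds a common 12-base word, while the tallest region of the same desert, which holds 1, stood at 8.80 and 8.27 RPM. Away from gaps the largest rises of this height, picked out after the values were seen, were smaller and their intervals included 0, with 14 and 29 tags between GRIK2 and HACE1, a log2 ratio of 0.91 (-0.01 to 1.83), as the first. SPATA31A7 to FAM27E3 on chromosome 9 had 36 and 89 peaks, a ratio of 2.47 (1.68 to 3.64), and its 30 shared regions had a median log2 ratio of 0.08. Its tallest region, 1504 kb from the nearest large gap, had 94 and 92 tags. ZNF254 to UQCRFS1 on chromosome 19 had 44 and 52 peaks, a ratio of 1.18 (0.79 to 1.77).

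Deserts were also grouped by their flanking genes, from lists of gene name stems. As matched, the stems did not take in BCL11A, TFAP2A or TFAP2B, whose deserts were not counted as flanked by a developmental transcription factor gene. A developmental transcription factor gene flanked 24 deserts with 15.3 Mb of sequence. They held 88 DMSO and 187 MAK683 peaks, a ratio of 2.12 (1.65 to 2.74), and without ARRDC3 to NR2F1 they held 17 and 152, a ratio of 8.94 (5.42 to 14.8). Of these 24 deserts 12 had more MAK683 peaks and 1 had fewer. ZEB2 to ACVR2A had 4 and 35 peaks, MMS22L to POU3F2 had 2 and 14, and KLHL1 to DACH1 had 0 and 15. No peak was called in either library beside IRX1, TBX3 or NR2F2. A cell adhesion gene flanked 42 deserts, with 154 and 477 peaks, a ratio of 3.1 (2.58 to 3.71), and 93 and 433 without SLITRK5 to GPC5, a ratio of 4.66 (3.72 to 5.82). Deserts of neither list had 646 and 1959 peaks, a ratio of 3.03 (2.77 to 3.31). The deserts left out of the lists were known to have low ratios, so leaving them out had to raise the values. No desert was left out of the group of neither list, so only the values of whole groups can be set side by side.

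By chromosome, the desert ratio was above 1 in 16 of the 19 autosomes with desert peaks in both libraries, and above the ratio of the other peaks of that chromosome in 16. The interval of this relative ratio lay above 1 in 12 and below 1 in 0. The desert ratio was highest on chromosome 11, with 15 and 147 peaks (9.80, 5.76 to 16.7), on chromosome 18 with 12 and 113 (9.42, 5.19 to 17.1) and on chromosome 3 with 18 and 165 (9.17, 5.64 to 14.9). On chromosome 5, which holds the NR2F1 desert, 135 and 188 peaks gave 1.39 (1.12 to 1.74), and on chromosome 21, 46 and 41 gave 0.89 (0.59 to 1.36). Deserts of chromosomes 15 and 16 held no peak.

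The sequence at desert summits was poorer in G and C than elsewhere, with a median of 45.5% in DMSO and 46.5% in MAK683 in windows of 200 bases, against 52.5% and 51.5% for other autosomal peaks. Peaks between coding genes at 200 to 500 kb had 46.5% and 48.0%. A long noncoding RNA gene covered 34.6% of DMSO and 32.0% of MAK683 desert summits, against 14.6% and 17.5% of other summits and 39.9% and 36.0% at 200 to 500 kb. A noncoding TSS lay within 3 kb of 16.7% and 12.9% of desert summits, against 16.7% and 14.6% of the others. Motif matches on both strands are descriptions and not binding sites, and all windows have the same length. CTCF (CNAGNGGGC), the insulator protein, matched 6.31% of DMSO and 3.24% of MAK683 desert windows, against 5.87% and 4.94% of other windows and 4.61% and 3.49% at 200 to 500 kb. TEAD (ACATTCC), the factor family of the Hippo pathway, matched 6.98% and 4.23%, against 2.88% and 3.15% of other windows and 4.43% and 3.69% at 200 to 500 kb. Near gaps TEAD matched 10.9% of DMSO and 6.74% of MAK683 desert windows, and elsewhere in deserts 5.61% and 3.82%. Its letters end in ATTCC, which reads GGAAT on the other strand. Near gaps 3.06% of DMSO and 1.62% of MAK683 desert windows held GGAAT at least 5 times. The shares were 0% and 0.044% elsewhere in deserts and 0.0387% and 0.0269% in other autosomal windows. How far such repeats made up the near-gap TEAD matches was not tested. Motifs common at promoters were scarcer than in all other peaks, but about as scarce between genes at 200 to 500 kb. SP/KLF (GGGCGGG) matched 2.59% of DMSO and 1.72% of MAK683 desert windows, against 8.52% and 6.41% of other windows and 2.93% and 1.63% at 200 to 500 kb. The factors of the ETS family bind near promoters as well as enhancers, and their motif (CCGGAAG) matched 0.68% and 0.42%, against 2.57% and 2.03% of other windows and 0.99% and 0.59% at 200 to 500 kb. AP-1, the Fos and Jun factors, with the letters TGANTCA, matched 6.08% and 6.33% of desert windows, against 5.50% and 5.82% of the others. E-box (CAGCTG), the site of many basic helix-loop-helix factors, matched 10.0% and 14%, against 14% and 14.5%. The motif of the GATA factors, with the letters AGATAAG, matched 2.48% of DMSO and 2.86% of MAK683 desert windows, against 1.81% and 1.92% of the others. The forkhead motif FOX (TGTTTAC) matched 2.93% and 3.51%, against 2.17% and 2.27%. At 200 to 500 kb AP-1 matched 7.92% of DMSO and 6.69% of MAK683 windows, and E-box 11.6% and 14.2%. GATA matched 2.80% and 2.49% there, and FOX 3.66% and 2.72%. Among MAK683 desert peaks, CTCF matched 2.48% of the 2018 without a DMSO partner and 5.79% of the 605 with one, and among all other autosomal MAK683 peaks 3.12% of those without a partner.

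**Figure D5:**
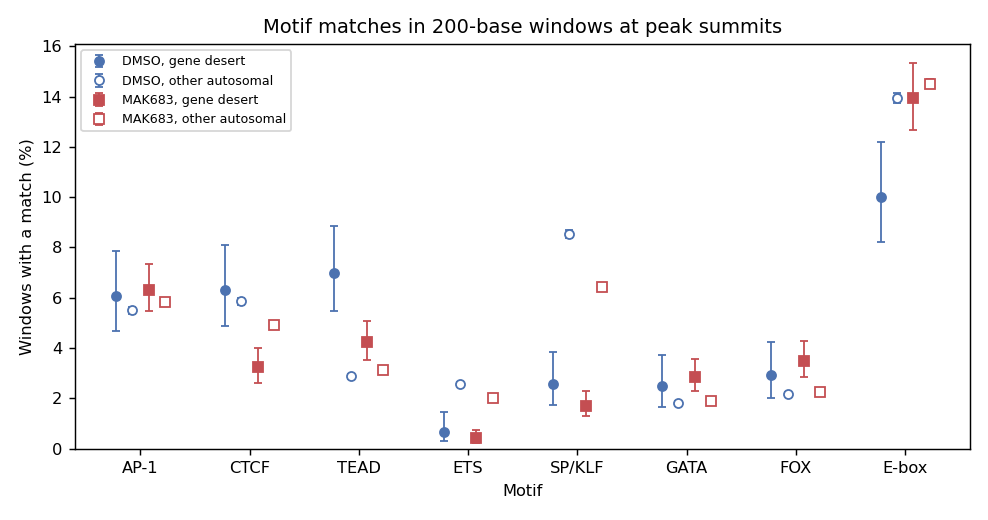
Share of 200-base windows at peak summits with a match to each of 8 motifs, for gene-desert peaks (filled) and other autosomal peaks (open) of both libraries, with bars for the 95% Wilson interval. TEAD stands higher and SP/KLF and ETS stand lower in deserts, and the DMSO and MAK683 desert shares differ most for CTCF, TEAD and E-box.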

How the data were processed

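G401 cells were profiled by ATAC-seq with 1 library per group (DMSO, MAK683), with reads of 150 bp per the labels. Trimming by Trim-galore and alignment by Bowtie2 to hg19 are the authors' steps. Peaks were called by the authors for each library by itself, per the file headers by MACS 2.1.1.20160309, whereas the submitters' processing notes list MACS2 2.1.0 and 2.2.7.1. The shift was -100 bp, the extension 200 bp, 1 tag was kept per position, no local background was used and the q cutoff was 0.05, so a region's coverage was judged against 1 genome-wide level. Tags after filtering numbered 16598348 in DMSO and 18265284 in MAK683. Height, as deposited, is the pileup signal at the summit, in whole tags. The p-value and the q-value, each as a deposited −log10, and the deposited fold enrichment, a ratio to the background, depend on depth and were used only in alternatives.

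Heights were scaled to RPM. The desert map used all TSSs of coding transcripts (75795 positions) and the bodies of 19229 protein-coding genes of GENCODE 44 lifted to GRCh37. A peak was shared when the other library had a peak with at least 1 bp in common, and overlapping peaks were merged into regions with the tallest peak of each library. The 2 heights of a region can therefore come from summits at different sites. The regions named were the 6 tallest shared, the 3 tallest of each library alone with ties kept, and the 3 largest rises and falls among shared regions with a mean of at least 1 RPM. The deserts named were the 6 with the most peaks, the 3 longest, and the 3 with the highest and lowest ratios among those with at least 20 peaks; others are said to be chosen after their values were seen. No test was made. Shares have Wilson intervals, single heights exact binomial intervals, ratios Poisson intervals on the log scale and medians order-statistic intervals, all at 95%. The members and lists were chosen with earlier results of these data known. Alternatives were equal peak numbers, stricter filters on q or height, other desert distances and TSS sets, leaving out gaps or 1 desert, other overlaps and other height scales. The desert call, the overlaps and the intervals were checked on simulated data. Repeat shares were not computed because the reference sequence was not soft-masked. Python 3.11.15, numpy 2.4.6, pandas 2.3.3, scipy 1.17.1 and matplotlib 3.10.9 were used.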

Additional observations from a re-analysis of the deposited data

Results flagged for a closer look

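Desert peaks of chromosome X stood outside the autosomal comparison and were somewhat more frequent in MAK683 than in DMSO, with 40 against 35 peaks. Their ratio of 1.14 (95% Poisson interval 0.73 to 1.80) has an interval that includes 1, and it was 1.01 times (0.64 to 1.60) the ratio of the other peaks of the chromosome, whereas the autosomal desert ratio was 2.95. With 1 library per group there was no test of the difference between X and the autosomes.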

How the results depend on the processing

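The ratio of desert peak numbers kept its direction in 9 of 10 alternatives and was reversed at heights of at least 1 RPM, at 0.919. It was 1.68 and 1.20 with a −log10 q of at least 5 and 10, 1.95 at 0.5 RPM, 2.64 with a desert distance of 1000 kb and 3.42 without near-gap peaks. The ratio relative to other autosomal peaks stayed above 1 in all 11 alternatives, at 1.75 and 1.42 for these q limits, 1.92 and 1.28 at 0.5 and 1 RPM, 2.28 and 1.86 with distances of 250 and 1000 kb, and 2.43 without near-gap peaks. The share of DMSO desert peaks overlapped in MAK683 was 59.4% at 1 RPM, 61.1% with equal peak numbers, 62.7% and 74.4% with 250 and 1000 kb, 60.4% without near-gap peaks, 37.3% when 50% of each peak had to overlap and 39.4% with summits at most 150 bp apart. For MAK683 desert peaks the share was 38.7% and 57.6% for the q limits, 33.5% and 64.1% at 0.5 and 1 RPM, 30.3% with equal numbers, 20.9% and 27.0% with 250 and 1000 kb, 19.1% without near-gap peaks, 12.6% with 50% overlap and 13.3% by summits. The median log2 height ratio was -0.22 at a −log10 q of at least 10, -0.21 at 1 RPM, -0.00056 with 1000 kb, -0.20 without near-gap peaks, 0 in tags, as the scale for depth is then left out, and -0.078 by fold enrichment. For the other changes the cause was not tested. Counting immunoglobulin and T cell receptor segments as coding genes, an alternative added after the data were seen, gave 2.92, 2.08, 66.0%, 23.2% and -0.14 for the 5 results. Depth limited what could be seen to peaks of at least 6 tags in either library. No paired analysis was possible because there was 1 library per group.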
